A study of Mus musculus with 24 samples.

Results

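In mouse 3T3-L1 cells, 616 of the 1629 Nrf1 peaks listed at day 7 of adipocyte differentiation overlapped none of the 2078 Nrf1 peaks listed at day 0. These 616 regions are described here beside the 1013 day 7 peaks that did overlap a day 0 peak and the 1064 day 0 peaks that overlapped none at day 7. A peak is a stretch of genome where sequenced fragments pulled down with an antibody pile up, and an overlap is 1 shared base or more. The members were chosen by the presence of a peak in the 2 Nrf1 lists, so that presence and the scores are given as a description with no test.

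Nrf1 (nuclear respiratory factor 1) is a transcription factor that binds as a dimer to GC-rich sites in promoters, many of them of genes for mitochondrial respiration, and it is a separate protein from the Nfe2l1 product of the same nickname. LSD1, the product of Kdm1a, is a demethylase that removes methyl groups from histone H3 at promoters and enhancers. 3T3-L1 is an established line of mouse preadipocytes that turn into fat-storing adipocytes when confluent cultures are given a hormone mixture, a change that brings large amounts of mitochondrial and lipid-handling enzymes.

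Confluent cells sampled before induction stood for day 0. Day 7 cells had received 500 µM isobutylmethylxanthine, the PPARγ agonist rosiglitazone at 10 µM, the glucocorticoid dexamethasone at 1 µM and insulin at 10 µg/ml, and from day 3 insulin alone. RNA-seq covered 4 groups of 3 libraries each: control cells and cells labelled LSD1 overexpression, at day 0 and at day 7. LSD1 ChIP-seq had 1 sample for each of the same 4 groups, and Nrf1 ChIP-seq had 1 sample for each day, each with its own input. The day 7 Nrf1 sample carries a title that names the LSD1 line and a genotype label that says control, so whether its cells overexpressed LSD1 is not settled, and a difference between the Nrf1 lists by day and one by cell line cannot be told apart. With 1 Nrf1 sample a day there is no replicate check of any peak. How the LSD1 line was made, and whether it is 1 clone, is not given in the sources used here.

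The sequences below show what lay at the 10 highest-scoring of these peaks and at those of the 10 respiratory subunit genes, with a few other genes described below. The Nrf1 core was searched as CGCATGCG or CGCACGCG on both strands, of which the first reads the same on both. Each line gives 30 bases of GRCm38 (mm10), read on the strand that spells the core, with the 8 core letters in capitals; the copy nearest the peak centre was taken. An exact core stood in 3 of the 10 highest peaks and at 6 of the 10 subunit genes. These peaks held one:
Atp5g2 (chr15:102671070-102671099, + strand): ggaaggctctgCGCATGCGcggccggagcc
Abhd13 and Lig4 (chr8:9977715-9977744, + strand): ccagtgtcctgCGCATGCGcataggggtgc
Nol7 (chr13:43398281-43398310, + strand): ccgccctcccgCGCACGCGcctcagcacgt
Atp5c1 (chr2:10080430-10080459, - strand): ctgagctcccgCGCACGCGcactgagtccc
Atp5o (chr16:91931602-91931631, + strand): tggcgccagagCGCACGCGcgcgcgccagc
Atp5j (chr16:84836303-84836332, + strand): ctccacaagtgCGCATGCGcaccttataag
Ndufa13 (chr8:69903321-69903350, + strand): ttgctggagagCGCATGCGcatcctcgatt
Ndufa8 (chr2:36049329-36049358, + strand): ggtaccatctgCGCATGCGtctccagcgac
Acadm (chr3:153944784-153944813, + strand): aaggccctctgCGCATGCGtcctgctcccg
Lpin1 (chr12:16589729-16589758, + strand): acgagcaggcgCGCACGCGtgtggctgcct
Dnmt1 (chr9:20952590-20952619, + strand): acgctgccccgCGCATGCGcgccctggctg

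Other peaks lacked an exact core, and the nearest 8 letters that differ from a core form by 1 base are shown in the same way. In Upf2, Pan3, Eapp, Uvssa, Dld, Ndufs5 and Ndufa5 the same 8 letters recurred, and the letters at Usp10 are that string read on the other strand. Of the 10 highest, Fis1 had neither an exact core nor such a match in the 1077 bases of its peak.
Upf2 (chr2:5951027-5951056, + strand): tgaatcgcttgCGCCTGCGcatctccaatt
Pan3 (chr5:147430096-147430125, + strand): cgtgggggccaCGCCTGCGgtcccccaccc
Eapp (chr12:54695883-54695912, + strand): tccttcctgtgCGCCTGCGcaagccgtcca
Dld (chr12:31351413-31351442, + strand): tccccaccctgCGCCTGCGcaacatatacg
Ndufs5 (chr4:123718265-123718294, + strand): cagcgggtctgCGCCTGCGcagcaagcagc
Ndufa5 (chr6:24527697-24527726, + strand): aggtagatttgCGCCTGCGcagctcacaca
Uvssa (chr5:33378535-33378564, + strand): ccgcgtcctcgCGCCTGCGctgtggagccg
Usp10 (chr8:119910797-119910826, + strand): cgcagtcagtgCGCAGGCGcggcggccgct
Tax1bp1 (chr6:52713819-52713848, - strand): ggcctccgcccCGCACGCTacgccgcgccc
Ndufb6 (chr4:40279479-40279508, + strand): agcaggctctgCTCATGCGcaaagccctct
Ndufs6 (chr13:73328455-73328484, + strand): tgacccttgacCCCACGCGtcgtaccaagt

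The gene for Nrf1 itself had one of these peaks at its start site, at chr6:30047474-30048581 with a score of 228, and the peak centre lay 40 bases inside the gene. The 200 bases just before that start site, at chr6:30047788-30047987 on the + strand, overlap no annotated exon; the single core copy is in capitals and reads CGCACGCG on the other strand.
Nrf1 promoter: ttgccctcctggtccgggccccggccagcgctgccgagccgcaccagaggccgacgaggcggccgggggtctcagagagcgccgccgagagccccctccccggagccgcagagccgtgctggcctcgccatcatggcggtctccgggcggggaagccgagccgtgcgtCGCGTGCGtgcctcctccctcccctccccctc
A peak of both days, with a score of 53.7 at day 7, lay farther upstream at chr6:30021242-30021814; it shared 264 bases with its day 0 counterpart. The start-site peak overlapped an LSD1 peak in all 4 LSD1 lists.

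The peaks only at day 7 had lower scores than those of both days. Their deposited score, which ranks peaks within a list and whose formula is not given in the sources used here, had a median of 73.1 with the middle 50% between 58.3 and 103, and ran from 50.01 to 330.0. Peaks of both days had a day 7 median of 141, and peaks only at day 0, scored in the other list, a median of 58.6. Every list began at a score of about 50, and 182 of the 616 peaks (29.5%) scored under 60, against 66 of 1013 (6.52%) of the both-day peaks and 580 of 1064 (54.5%) of the peaks only at day 0. A score of 100 or more was reached by 168 of the 616 (27.3%). The members' median width was 877 bases.

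Upf2, which encodes a factor of nonsense-mediated mRNA decay, had the highest score, 330.0, at chr2:5950524-5951614. It was followed by Atp5g2, a gene for the membrane ring subunit of ATP synthase, at 285, by the shared promoter of Abhd13 and Lig4, a DNA ligase of end joining, at 275, and by Pan3, a subunit of an mRNA deadenylase, at 269.8. Fis1, an outer-membrane factor of mitochondrial fission, had 268 and Usp10, a deubiquitinase, 265. Nol7, Eapp, Uvssa and Tax1bp1 completed the 10 highest, at 253, 246, 243 and 238.

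The members nearest to the rule's edge lay 14 bases (at Map4k3), 20 bases (at the Setd5 promoter) and 213 bases (at Abhd13 and Lig4) from a day 0 peak. Just outside the rule, day 7 peaks at Sipa1l2 and Tdp1 shared 168 and 237 bases with a day 0 peak. In all, 6 of the 616 peaks lay within 500 bases of a day 0 peak, and counting those as shared left 610. The number depended on the score accepted: against day 0 peaks of score 100 or more alone, 1091 day 7 peaks had no partner.

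**Figure D1:**
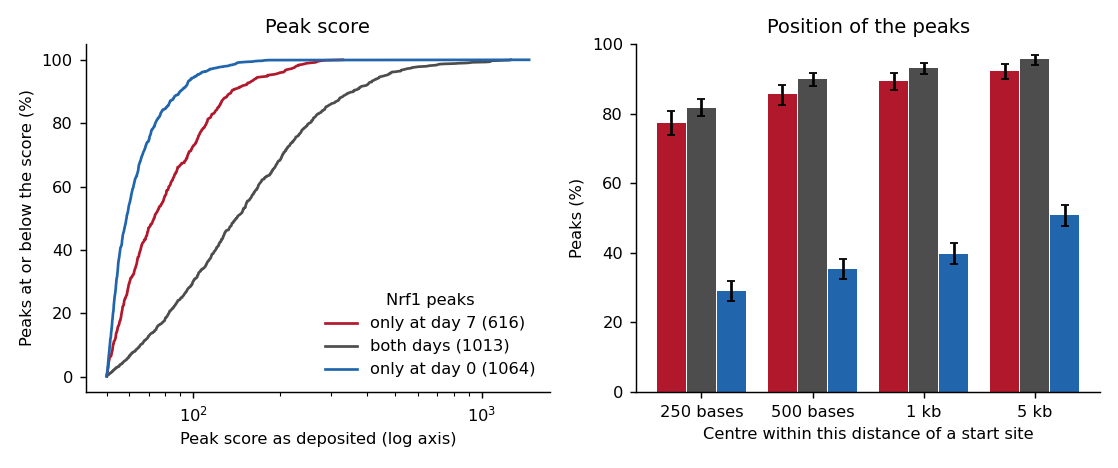
Left: percent of the peaks of each set (lines) at or below each deposited score (log axis); right: percent of peaks (bars, with exact 95% binomial intervals) whose centre lay within 250 bases to 5 kb of a RefSeq start site. Within the day 7 list, peaks only at day 7 had a median score of 73.1 and peaks of both days 141, and 89.4% and 93.2% of them lay within 1 kb of a start site; the day 0 scores come from another list.

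These regions were promoters in the main. The centre of 551 of the 616 (89.4%, exact 95% binomial interval 86.7% to 91.8%, which covers counting error only) lay within 1 kb of a RefSeq transcription start site, against 93.2% (91.5% to 94.7%) of the both-day peaks and 39.8% (36.8% to 42.8%) of the peaks only at day 0. Within 250 bases the shares were 77.4%, 81.7% and 28.9%. Of the members' centres, 325 were intergenic, 160 lay in an untranslated exon part, 90 in an intron, 31 in a coding exon and 10 in an exon of a non-coding gene. Start sites on both strands lay within 1 kb at 107 of the 551 promoter peaks (19.4%), as at 20.7% of the both-day and 18.2% of the day 0 only promoter peaks. Of the 182 members that scored under 60, 84.6% lay within 1 kb of a start site, and of the 168 that scored 100 or more, 96.4%.

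The base composition was that of CpG-island promoters. In the 300 bases at the centre the median GC content was 66.0% and the median ratio of observed to expected CpG was 0.885, close to the 65.7% and 0.910 of the both-day peaks, while peaks only at day 0 had 50.3% and 0.328. A ratio of 0.6 or more together with a GC content of 50% or more was met by 554 of the 616 (89.9%), by 94.9% of the both-day peaks and by 32.2% of the day 0 only peaks.

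An exact Nrf1 core stood in the central 300 bases of 216 of the 616 peaks (35.1%, interval 31.3% to 39.0%). Peaks of both days held it more often, at 509 of 1013 (50.2%, 47.1% to 53.4%), and peaks only at day 0 less often, at 90 of 1064 (8.46%, 6.86% to 10.3%). Of all 32851 RefSeq promoters of the same length (GRCm38.p6, 250 bases before to 50 after the start), 4.19% held it. With 1 mismatch allowed the shares were 83.3% of members, 93.7% of both-day peaks, 27.8% of day 0 only peaks and 21.9% of all promoters. The shorter string GCGCA, one arm of the Nrf1 site, searched on both strands and overlapping most cores, stood in 90.9% of members and 30.4% of all promoters. The promoter set was not matched to the peaks for base composition or expression, and its windows were not centred on peaks. Counted by gene, the contrast in exact cores was smaller. Such a promoter held one for 169 of 554 genes at member peaks (30.5%) and for 1033 of 10365 genes tested below (9.97%).

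Where a core was present it lay near the peak centre. The nearest copy was a median of 35.5 bases from the centre in the 216 members, 39.0 in the 509 both-day peaks and 57.0 in the 90 day 0 only peaks. Cores within 25 bases of the centre were found in 13.3% of all members and cores 125 to 150 bases away in 2.11%. Among the 238 core copies in members, 142 (59.7%) had a G before and a C after the 8 letters.

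By score, 41.7% of the 168 members at 100 or more held a core (interval 34.1% to 49.5%) and 29.1% of the 182 under 60 (22.6% to 36.3%), intervals that overlap. At the same scores the both-day peaks stood at 54.9% (51.2% to 58.7%) and 33.3% (22.2% to 46.0%).

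Other short promoter motifs were searched in the same windows. The GC box GGGCGG stood in 71.8% of members and 72.6% of both-day peaks, against 35.7% of all promoters. An ETS-type motif, CCGGAAG, stood in 17.5% and 18.9%, against 8.86%. The CCAAT box was at 29.2% and 29.1%, below the 37.4% of all promoters, and TATAAA at 5.19% and 3.06%, below 13.6%. The cyclic AMP response element TGACGTCA stood in 10 of 616 members (1.62%, interval 0.781% to 2.96%) and 37 of 1013 both-day peaks (3.65%, 2.58% to 5.0%), against 1.79% of all promoters. All were searched on both strands, and a GC box can share end bases with a core. The promoter set was not matched for base composition here either, so these contrasts cannot be separated from it. A match is a string in a window and says nothing of occupancy.

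**Figure D2:**
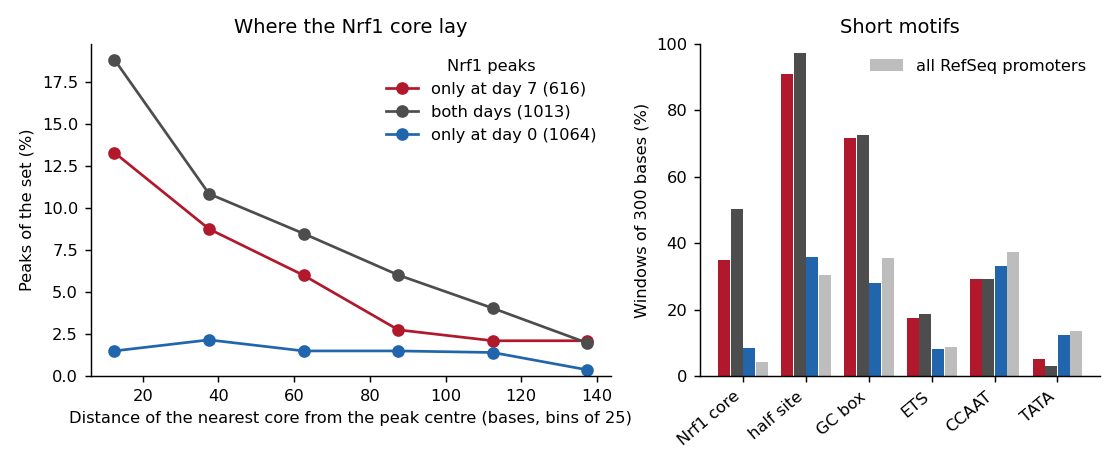
Left: percent of the peaks of each set whose nearest exact Nrf1 core lay in each 25-base bin of distance from the peak centre; right: percent of 300-base windows holding each short motif in the 3 sets (same colours) and in all RefSeq promoters (grey). In the peaks only at day 7 the share with a core was 13.3% in the first bin and 2.11% in the last, and the 3 sets were ordered both days, only day 7, only day 0 for the core.

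The 65 peaks farther than 1 kb from a start site differed from the rest. Only 11 of them (16.9%) held an exact core, against 205 of 551 promoter peaks (37.2%), and 31 (47.7%) had the CpG-island composition, against 94.9%. In 6 of the 65, and in none of the 551, over 80% of the central 300 bases were soft-masked, the lower-case marking of repeats. Their highest score, 153, belonged to a peak in an exon of the non-coding gene Gm14486 at chr2:30658127-30659136, with 1 core. Others among the highest were Mrgbp at 125 (centre 1480 bases inside the gene), an intron of Cdc14a at 112 and an intergenic site near Aadacl4fm2 at 110.05, none with an exact core.

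Most of these regions were also under an LSD1 peak. LSD1 peaks overlapped 186 of the 616 (30.2%) in the control day 0 list, 476 (77.3%) in the control day 7 list, 524 (85.1%) in the day 0 list of the cells labelled LSD1 overexpression and 595 (96.6%) in their day 7 list. These lists hold 3024, 8303, 13997 and 27221 peaks, so the order of the shares is also the order of the list lengths, and no change in LSD1 at a region can be read from it. As background, windows of the members' median width at the start sites of 13059 genes tested below gave 21.9%, 58.0%, 69.6% and 78.9%. Peaks of both days gave 33.0%, 81.8%, 88.9% and 99.2%, and peaks only at day 0 gave 14.8%, 35.0%, 42.3% and 52.5%.

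The commonest pattern, at 280 of the 616 peaks, was an LSD1 peak in every list but control day 0. A further 169 overlapped all 4 lists, 68 only the 2 lists of the labelled cells, 41 only the labelled day 7 list and 17 none. Of the 17 with none, 15 lay farther than 1 kb from a start site. The 17 include a peak 4608 bases upstream of Mt2 (score 58.9) and one in an intron of Bmper (score 59.95). Both were chosen after their values were seen. At the Nrf1 start site the LSD1 scores were 108.5 and 315 in control cells at day 0 and day 7, and 642 and 1709 in the labelled cells. Scores from lists of different depth are not comparable between lists, but within each list the Nrf1 site stood above that list's median of 74.7, 127, 155 and 150. The medians over all members with an LSD1 peak were 74.4, 145, 206 and 711, so standing above the list median was common among members.

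**Figure D3:**
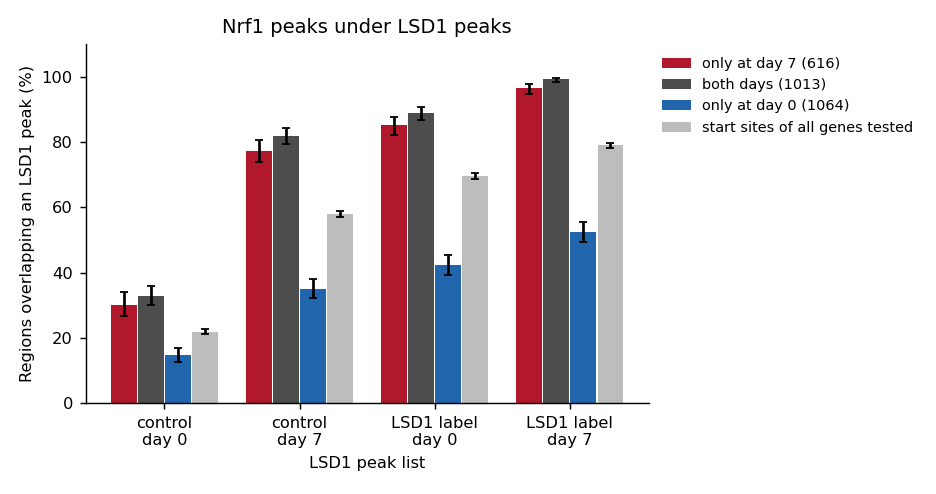
Percent of regions overlapping an LSD1 peak (bars, exact 95% binomial intervals) in each of the 4 LSD1 lists, for the 3 sets of Nrf1 peaks and for windows at the start sites of all genes tested. Peaks only at day 7 lay between 30.2% and 96.6%, close to the both-day peaks and above the start-site windows in each list.

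Genes with a start site within 1 kb of a peak centre were taken as member genes. There were 664 of them at the 551 promoter peaks, 112 of which touched more than 1 gene. Of these genes 632 were matched in the count tables and 623 passed the filter on low counts, of 13356 genes tested. The filter asks for enough reads in at least 1 group, so the 623 are not all members. Per kilobase of transcript their levels (RPKM, reads per kilobase scaled for the library total; 622 genes with a length) had a median of 12.7 in control cells at day 0 and 13.7 at day 7, above the medians of 9.27 and 9.45 over all genes tested, with 16.0 and 15.9 for genes at both-day peaks and 14.1 and 13.6 for genes at peaks only at day 0. Counts were fitted with edgeR's robust quasi-likelihood test over the 12 libraries, with Benjamini-Hochberg adjustment over all genes tested, and a gene was called at an adjusted p under 0.05. Levels below are CPM (counts scaled to a common library total) and differences are log2 fold changes with their standard error (SE). The libraries are labelled biological replicates, with no word on separate cultures, so the p-values measure only the spread between these libraries.

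Total counts ran from 27512273 to 37565527 per library. One library stood apart: replicate 1 of the labelled cells at day 0 correlated with its partners at 0.955 and 0.957 over log2 CPM, where those partners reached 0.993. Kdm1a, the gene named by the label, stood at 83.1 CPM in control and 97.5 in labelled cells at day 0 (adjusted p = 0.0969, edgeR) and at 69.4 and 54.7 at day 7, lower in the labelled cells (adjusted p = 0.00751, edgeR), so "labelled" is used for these libraries throughout. The sum of 9 adipocyte markers ran from 668 to 847 CPM in control cells at day 0 and from 10377 to 12119.9 at day 7, and from 496 to 623 and from 29597 to 36119 in labelled cells. None of these 9 is a member gene. The sum of 8 preadipocyte or fibroblast markers ran from 40276 to 43069 CPM at day 0 and from 12942 to 14077 at day 7 in control cells, and from 22174 to 23825 and from 1874 to 2063 in labelled cells. The 7 bone or cartilage markers, with Acan at 0 throughout, summed to between 253 and 289.9 and between 117 and 153 in control cells, and to between 222 and 256 and between 35.4 and 39.8 in labelled cells. The 6 endothelial markers summed to 3.85 CPM at most, the 6 macrophage markers to 34.3 with Adgre1 at 0 in every group, and the 7 muscle markers, with Myod1, Myog and Actc1 at 0 throughout, from 4.16 to 5.59 at day 0 and from 12.7 to 15.6 at day 7 in control cells and from 6.83 to 17.6 and from 33.6 to 44.1 in labelled cells. The part of these marker changes in the changes below was not tested, and in bulk RNA fewer cells of a type and less RNA per cell cannot be told apart.

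In control cells the member genes changed with differentiation about as often as other genes. By day 7, 144 of the 623 were higher and 126 lower (23.1% and 20.2%), while of all genes tested 23.7% were higher and 24.6% lower, 48.3% in all. Their median log2 change was 0.02, against -0.01 over all genes tested. In the labelled cells 232 were higher and 158 lower (37.2% and 25.4%), against 32.6% and 37.2% (69.8% in all) of all genes tested, and the medians were 0.13 and -0.07. Genes at both-day peaks had 38.9% higher and 26.4% lower in that comparison, and genes at peaks only at day 0 had 39.4% and 31.8%. The share of lower genes was under that of all genes tested in each of these sets.

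Between the cell lines at day 7, 212 member genes were higher and 146 lower in the labelled cells (34.0% and 23.4%), against 30.2% and 33.4% (63.6% in all) of all genes tested. At day 0 the numbers were 60 and 64 (9.63% and 10.3%), against 12.8% and 13.0% (25.8% in all). Those day 0 counts depended on single libraries: without replicate 1 of labelled day 0, 131 were higher and 164 lower (3058 and 3507 of all 13510 genes then tested), and without replicate 3 of control day 0, 23 and 39. The change from day 0 to day 7 differed between the lines, by the interaction term, for 291 member genes: 186 toward higher and 105 toward lower in the labelled cells (29.9% and 16.9%), against 23.9% and 28.1% (51.9% in all) of all genes tested. The comparisons share libraries, so their counts are set side by side and not against each other.

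**Figure D4:**
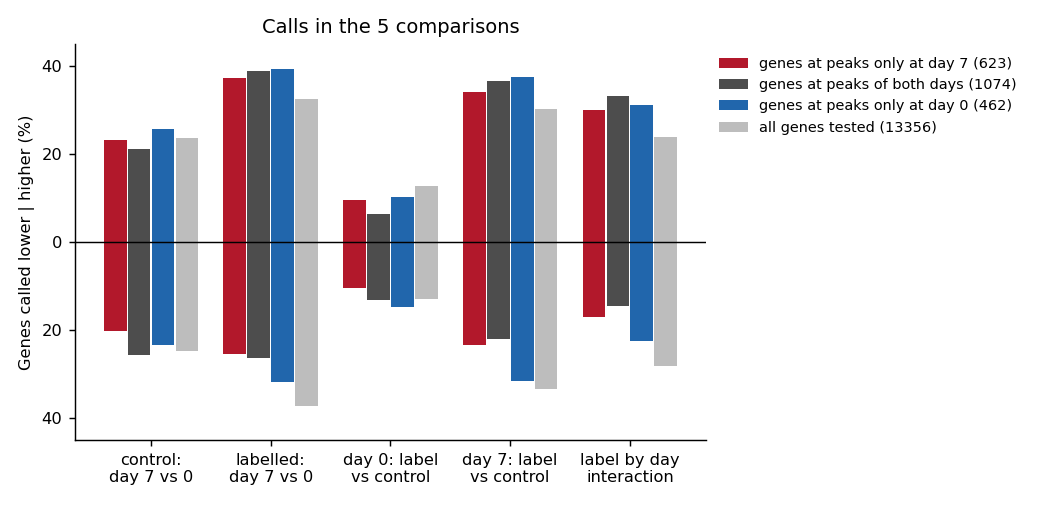
Percent of genes called higher (above 0) or lower (below 0) by edgeR at an adjusted p under 0.05 in each of the 5 comparisons, for genes at each set of Nrf1 peaks and for all genes tested. In the labelled cells 37.2% of genes at peaks only at day 7 were higher and 25.4% lower at day 7, against 32.6% and 37.2% of all genes tested.

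Nrf1 mRNA was not called higher at day 7 in either line. Nrf1 stood at 37.9, 35.5 and 37.7 CPM in control cells at day 0 and at 27.7, 29.7 and 27.3 at day 7; in labelled cells it stood at 32.0, 46.8 and 47.5 and then at 32.2, 34.1 and 35.6. All control day 7 libraries were below all control day 0 libraries, and the fall was 0.39 on the log2 scale (a change of -0.39, SE 0.14, adjusted p = 0.0347, edgeR), a call that was lost with no filter on low counts and when any 1 control library or replicate 2 of labelled day 7 was left out (adjusted p from 0.0533 to 0.0973, edgeR). In labelled cells the change was -0.31 (SE 0.14, adjusted p = 0.0633, edgeR), with the day 0 libraries spread on both sides of the day 7 values; it passed without replicate 1 of labelled day 0 (-0.47, adjusted p = 0.00023, edgeR) and with counts summed over transcripts (-0.37, adjusted p = 0.0448, edgeR).

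Respiratory chain members rose and none fell. Of 84 genes for subunits of the oxidative phosphorylation complexes in the count tables, 10 were members: Atp5c1, Atp5g2, Atp5j and Atp5o of ATP synthase and Ndufa5, Ndufa8, Ndufa13, Ndufb6, Ndufs5 and Ndufs6 of complex I, the NADH dehydrogenase. All 10 were higher at day 7 in labelled cells, with a median log2 change of 1.74, and 7 of 10 in control cells, with a median of 0.57; none was lower. The other subunit genes moved likewise, with a median of 0.55 in control cells, so the gain was not particular to the members.

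Atp5c1, the gamma subunit that turns inside the catalytic head of ATP synthase, stood at 217, 243 and 219 CPM in control cells at day 0 and at 347, 362 and 315 at day 7. In labelled cells it stood at 262, 143 and 188 and then at 1032, 1006 and 1077. The groups of each line did not overlap, and the rise was 0.59 (SE 0.17, adjusted p = 0.0117, edgeR) in control and 2.39 (SE 0.18, adjusted p = 7.31e-08, edgeR) in labelled cells. Its peak, with a score of 69.5, lies in a promoter shared with Kin.

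Ndufa13, a complex I subunit, had a score of 125 and 2 cores in the central 300 bases, one of them 1 base from the centre, which lay 779 bases upstream of the nearest Ndufa13 start site and in an untranslated exon part of Tssk6. It stood at 108, 138 and 116 CPM in control cells at day 0 and at 165, 165 and 189 at day 7, and in labelled cells at 164, 83.95 and 107 and then at 413, 370 and 398. Labelled day 7 libraries were the highest throughout. Its change was 1.74 (SE 0.20, adjusted p = 4.82e-06, edgeR) in labelled cells. The control change of 0.52 (adjusted p = 0.0433, edgeR) lost its call with the replicate block (adjusted p = 0.0627, edgeR) and when any labelled day 7 library, or any control library but replicate 2 of day 0, was left out. Atp5o rose by 1.96 (SE 0.18) and Atp5j by 1.29 (SE 0.18) in labelled cells, from means of 133 and 110.5 CPM to 519 and 271. In control cells Atp5j rose by 0.55 (adjusted p = 0.0242, edgeR), a call lost without any of 4 of the 6 control libraries, and Atp5o had a change of 0.40 (adjusted p = 0.0783, edgeR), which passed without replicate 1 or replicate 2 of labelled day 0.

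Atp5g2, with the second-highest score, had low levels: 1.88, 3.02 and 1.55 CPM in control cells at day 0 and 5.92, 5.004 and 3.83 at day 7, and 3.03, 1.503 and 3.07 and then 8.28, 6.71 and 10.6 in labelled cells. The day 7 libraries were above the day 0 libraries in each line, by 1.19 (SE 0.33, adjusted p = 0.00917, edgeR) and 1.75 (SE 0.32, adjusted p = 0.000308, edgeR). How the authors counted reads that fit near-identical copies of a gene is not given in the sources used here, and the levels of genes with many such copies are uncertain.

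Of 40 genes for assembly factors of these complexes, 4 were members, and 3 rose in each line. Of the 36 others tested, 32 were higher in labelled cells and 22 in control cells, so the rise was not particular to the members. The shares of all genes tested were 32.6% and 23.7%. Atpaf2, which helps assemble the head of ATP synthase, stood at 22.4, 22.1 and 21.7 CPM in control cells at day 0 and at 38.3, 35.4 and 33.7 at day 7, and in labelled cells at 22.2, 16.2 and 13.7 and then at 118, 115 and 129.9. It rose by 0.69 (SE 0.15) and by 2.80 (SE 0.16, adjusted p = 5.14e-09, edgeR). Ndufaf4, a complex I assembly factor, rose by 1.05 and 1.81. Cox14, for cytochrome oxidase, rose in labelled cells (0.58, adjusted p = 0.0049, edgeR), and Sdhaf4, for complex II, in control cells (0.69, adjusted p = 0.0239, edgeR, a call lost without any of 4 control libraries); for neither did the interaction pass.

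The mitochondrial ribosome had 4 members of 78. Of the 74 others tested, 67 were higher and 1 lower in labelled cells, and 31 higher and 4 lower in control cells. Mrpl44, of its large subunit, rose in both lines, by 0.57 (SE 0.14) and 1.83 (SE 0.14, adjusted p = 8.68e-08, edgeR), from 17.6 to 26.1 CPM and from 19.2 to 68.3. Mrpl30 and Mrps24 rose by 1.06 and 1.17 in labelled cells, and Mrps33 by 0.90 in control cells, a call lost with counts summed over transcripts and without any of 4 control libraries. No gene of the 33 for mitochondrial import was a member, against 2.6% of all genes in the count tables. Of these 33, 7 were at peaks of both days and 2 at peaks only at day 0. At a share of 2.6% the list is too short for anything to be read from the lack of members.

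Upkeep and shape of mitochondria gave 3 members of 28, besides Nrf1 itself Fis1 and Top1mt. Fis1 did not pass the test with differentiation in either line and was 0.83 higher in labelled cells at day 7 (SE 0.22, adjusted p = 0.00505, edgeR), at 99.98 against 56.1 CPM. Top1mt, the mitochondrial DNA topoisomerase, fell by 0.70 in control cells (a change of -0.70, SE 0.11) and was 0.74 higher in labelled than in control cells at day 7.

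Member genes of fuel metabolism rose in both lines, as did most other genes of their lists. Of the other TCA cycle genes tested, 18 of 18 were higher in labelled cells and 17 in control cells. For fatty acid oxidation it was 18 and 14 of 19, and for lipid synthesis and storage 20 and 15 of 24. The gain was thus not particular to the members. Dld, the shared E3 subunit of pyruvate and oxoglutarate dehydrogenases, had a peak of score 221 and stood at 77.6, 85.9 and 80.3 CPM in control cells at day 0 and at 280.0, 270.1 and 293 at day 7, and in labelled cells at 55.4, 99.8 and 110.5 and then at 810, 700 and 634. It rose by 1.79 (SE 0.20) and 3.01 (SE 0.21, adjusted p = 4.23e-08, edgeR). Acadm, the medium-chain acyl-CoA dehydrogenase of fatty acid oxidation, stood at 75.3, 79.1 and 81.1 CPM and then at 402, 365 and 409 in control cells, and at 64.4, 47.2 and 53.7 and then at 1538, 1396 and 1251 in labelled cells.

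The rise of Acadm was 2.32 (SE 0.13) in control and 4.66 (SE 0.14, adjusted p = 3.71e-11, edgeR) in labelled cells. Lpin1, a phosphatidate phosphatase of triglyceride synthesis, went from 23.9, 25.9 and 23.5 CPM to 138, 122 and 135 in control cells and from 29.1, 19.04 and 15.99 to 719, 732 and 708 in labelled cells. That was a rise of 2.43 (SE 0.18) and 5.08 (SE 0.20, adjusted p = 2.06e-10, edgeR), and for Dld, Acadm and Lpin1 no day 7 library of a line overlapped its day 0 libraries. Of the adipocyte program, preadipocyte and thermogenic gene lists (27, 23 and 15 genes) no gene was a member, where 2.6% of all genes in the count tables were. Each list is too short at that share for anything to be read from this.

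**Figure D5:**
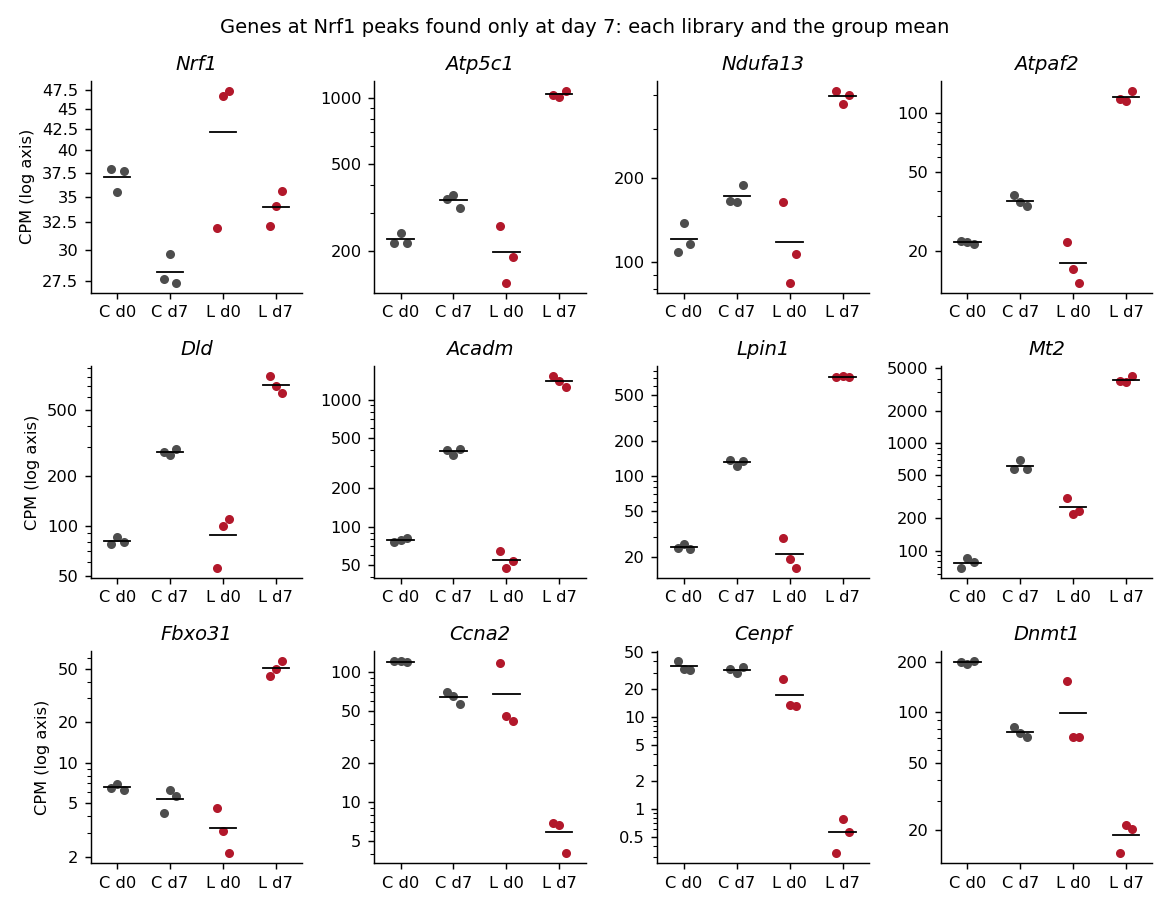
CPM (log axis) in each of the 3 libraries (points) and their mean (line) for 12 genes at Nrf1 peaks found only at day 7, in control (C, grey) and labelled (L, red) cells at day 0 (d0) and day 7 (d7). Respiratory and fuel genes such as Acadm were highest in labelled cells at day 7, where Ccna2, Cenpf and Dnmt1 were lowest, and labelled day 0 replicate 1 stood apart from its partners in several panels.

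Of 126 genes for DNA replication and the cell cycle, 10 were members. In control cells 7 of them fell and 1 rose by day 7, where 45 of the 112 other tested genes of the list fell and 12 rose, and 24.6% and 23.7% of all genes tested. In labelled cells 4 fell and 3 rose, against 54 and 22 of the others and 37.2% and 32.6% of all genes tested. At day 7 between the lines 5 were higher and 2 lower in labelled cells, against 30.2% and 33.4% of all genes tested. With 10 members nothing particular to them can be read from these counts. Ccna2, the S and G2 phase cyclin, stood at 122, 121 and 119 CPM in control cells at day 0 and at 70.6, 65.5 and 56.7 at day 7, and in labelled cells at 117, 45.95 and 42.1 and then at 6.95, 6.61 and 4.04. It fell by 3.54 on the log2 scale in labelled cells (a change of -3.54, SE 0.36, adjusted p = 1.61e-06, edgeR). In control cells the change was -0.91 (adjusted p = 0.0305, edgeR), a call lost when any 1 control library was left out. Replicate 1 of labelled day 0, at 117, was near the control level and its partners were not.

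The same replicate was high for Cenpf, a kinetochore protein, at 25.9 CPM against 13.3 and 12.96, and for Birc5, the mitotic survivin, at 39.5 against 6.83 and 7.89. Cenpf was then at 0.33, 0.77 and 0.57 in labelled cells at day 7, where control cells had 32.8, 29.6 and 34.5; the difference at day 7 was -5.83 (SE 0.34, adjusted p = 2.1e-08, edgeR). Birc5 differed by -3.22 at day 7 (SE 0.58); its change with differentiation in labelled cells was -2.97, and -1.67 without replicate 1 of day 0. Cdk16 and E2f4, a cyclin-dependent kinase and an E2F factor that represses cell cycle genes, fell in control cells by 0.69 and 1.00 on the log2 scale, and Cdk16 rose by 0.51 in labelled cells.

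Dnmt1, the maintenance DNA methyltransferase, which is highest in dividing cells, stood at 199, 193 and 202 CPM in control cells at day 0 and at 82, 75.2 and 71.7 at day 7. In labelled cells it stood at 154, 71.7 and 71.7 and then at 14.6, 21.4 and 20.3. Labelled day 7 libraries were below all others, and the change in labelled cells was -2.40 (SE 0.27, adjusted p = 3.35e-06, edgeR). Among 120 genes for chromatin and histone enzymes, 11 were members. In control cells 3 were higher and 3 lower, against 13 and 28 of 107 others of the list and 23.7% and 24.6% of all genes tested. In labelled cells 2 were higher and 1 lower, against 28 and 33 of the others and 32.6% and 37.2% of all genes tested. These members include Kdm1b, the paralog of LSD1, which did not pass the test with differentiation in either line (means of 30.2 to 34.8 CPM over the 4 groups). Kat7, a histone acetyltransferase, fell by 0.62 on the log2 scale in control cells and rose by 0.36 in labelled cells.

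Genes of RNA handling and protein synthesis had members called in both directions. For scale, 23.7% of all genes tested were higher and 24.6% lower in control cells, and 32.6% and 37.2% in labelled cells, and with so few members per list nothing particular to them can be read from the counts. Of 92 splicing genes 10 were members, with 4 higher and 2 lower in control cells and 3 higher and 4 lower in labelled cells, against 19 higher and 24 lower of 81 other genes of the list in labelled cells. Srsf5, a splicing activator, rose by 1.05 in control cells (SE 0.20), from 102, 66.8 and 72.8 to 161, 149 and 191 CPM, and Srsf7 fell by 1.18 on the log2 scale in labelled cells. Upf2, with the highest peak, rose in control cells from 52.2, 47.5 and 48.7 to 71.4, 74.97 and 70.8 CPM, by 0.55 (SE 0.13, adjusted p = 0.00367, edgeR), and stood at 39.8, 51.6 and 44.8 and then 50.3, 48.6 and 37.7 in labelled cells, groups that overlap. Tax1bp1, an autophagy receptor, rose by 0.72 and 1.18, Eapp by 0.72 and 1.01, and Usp10 fell by 0.55 and 0.35 on the log2 scale, the latter call lost with the replicate block (adjusted p = 0.0517, edgeR) and without any of 4 labelled libraries.

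Of 105 genes of RNA polymerase II and its general factors 12 were members; 6 rose and 1 fell in labelled cells, against 29 and 19 of 91 others of the list (32.6% and 37.2% of all genes tested), and 1 rose and 3 fell in control cells. Of 75 translation factor genes 7 were members, with 4 higher and none lower in labelled cells by edgeR, against 29 and 7 of 64 others, and 1 and 2 in control cells. Eif4h, a helper of the eIF4A helicase, fell by 0.32 on the log2 scale in control cells, a call lost without any of 4 control libraries, and rose by 0.52 in labelled cells. Sars, the seryl-tRNA synthetase, was 1.49 higher in labelled than in control cells at day 7 (SE 0.12), at 839 against 299.6 CPM. Of 331 ubiquitin enzyme genes 19 were members, with 5 higher and 8 lower in labelled cells, against 89 and 79 of 241 others, and 7 lower in control cells. Ube2m, which charges cullins with NEDD8, fell by 0.51 on the log2 scale in control and rose by 0.41 in labelled cells.

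Some members outside the pathway lists had wide changes. Mt2, a metallothionein, had a promoter peak of score 100.13 and all 4 LSD1 lists over it, and stood at 68.5, 85.9 and 77.4 CPM in control cells at day 0 and at 572, 699 and 573 at day 7; in labelled cells it stood at 309, 219 and 234 and then at 3775, 3707 and 4243. Mt2 was higher in labelled cells at both days, by 1.72 (SE 0.15) and 2.67 (SE 0.15, adjusted p = 1.79e-08, edgeR). Prxl2a, a peroxiredoxin-like protein, went from 1.53, 1.37 and 1.23 to 89.3, 86.1 and 90.1 CPM in control cells, a rise of 6.00 (SE 0.15), and from 8.23, 8.84 and 7.19 to 314, 271 and 257 in labelled cells, a rise of 5.12 (SE 0.13).

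Some genes rose by day 7 only in the calls of the labelled cells, and for these the interaction passed. Fbxo31, an F-box substrate receptor of a ubiquitin ligase, stood at 6.52, 6.89 and 6.31 CPM in control cells at day 0, at 4.19, 6.30 and 5.62 at day 7, and in labelled cells at 4.58, 3.11 and 2.12 and then at 44.2, 49.7 and 57.0. The day 7 change of the labelled cells exceeded that of the controls by 4.24 (SE 0.34, interaction adjusted p = 7.09e-07, edgeR). Bsg, basigin, a chaperone of lactate transporters, stood at 803, 960 and 872 and then 917, 934 and 869 CPM in control cells, and at 935, 509 and 570 and then 4250, 4421 and 5474 in labelled cells, and its interaction was 2.77 (SE 0.28; edgeR adjusted p = 4.76e-06).

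The calls of Gpr137b, a lysosomal membrane protein, had opposite directions: it rose in control cells from 26.5, 27.1 and 27.2 to 66.7, 96.3 and 62.5 CPM and fell in labelled cells from 78.9, 114 and 123 to 40.8, 38.01 and 37.5; its interaction was -2.92 (SE 0.26; edgeR adjusted p = 1.59e-06). Pkp4, a plakophilin of cell junctions, fell by 1.63 on the log2 scale in control cells (SE 0.10) and stood at 51.9 and 54.1 CPM in labelled cells. Trim59 and Dact3, a Wnt pathway inhibitor, fell in labelled cells by 2.77 and 3.34 on the log2 scale, and in control cells by 0.34 and 0.91. Klf9, a hormone-induced zinc finger factor, rose by 1.58 and 2.40.

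At day 0, before induction, Xxylt1 and Bmper, a BMP-binding protein, were lower in labelled cells by 1.51 and 1.35 on the log2 scale (log2 differences of -1.51, SE 0.11, and -1.35, SE 0.18), at 41.4 against 118 and 26.6 against 67.8 CPM. Member genes under all 4 LSD1 lists (189 tested) had 32.3% higher and 23.3% lower in differentiating labelled cells, those under 3 lists (315) 40.3% and 21.9%, and those under 0 to 2 lists (119) 37.0% and 37.8%. Of all genes tested, 32.6% were higher and 37.2% lower. In control cells the shares in the same order were 21.2% and 23.3%, 23.2% and 18.4%, and 26.1% and 20.2%, against 23.7% and 24.6%. Genes that are not members were not split in this way, so nothing particular to the members can be read from it.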

How the data were processed

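Members and gene lists were chosen with earlier results of these data known. The authors deposited raw counts per RefSeq transcript for each RNA-seq library and 1 peak list per ChIP-seq sample, whose score per peak is the authors' own. The submitters' processing notes name mm10, TopHat2 2, Bowtie2, MACS 1.41, HOMER, edgeR and DESeq 1.8.3, with no roles given. The formula of the score, and how reads fitting several places were counted, are not given in the sources used here.

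The transcript with the highest mean count stood for each gene. Counts were fitted with edgeR 4.0.16 (TMM, filterByExpr, robust quasi-likelihood, 4 group means) in R 4.3.3, a step tested on simulated data; DESeq2 1.42.0 was an alternative. Peaks, start sites and sequence (GRCm38.p6, RefSeq) were handled with pandas 2.3.3 and pysam 0.24.0 in Python 3.11.15. Promoter sequences were those of RefSeq. Replicate numbers are treated in the closing section. Motifs other than the core were added after the data were seen.

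Genes were named by this rule: per comparison, the 6 largest rises and 6 largest falls among called members with a mean of 10 CPM or more and no overlap of replicates (the last not for the interaction); up to 4 members of each of 33 gene lists with the highest CPM; genes at the 10 highest promoter peaks; and Nrf1, Kdm1a, Pparg and Adipoq. The 10 highest promoter peaks and the 5 highest farther away were named likewise. One peak under this rule is not reported here. The text describes a part of these genes, and Atp5o, Atp5j and other list members fall under the second rule.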

Additional observations from a re-analysis of the deposited data

Results flagged for a closer look

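For the genes here the change from day 0 to day 7 differed between labelled and control cells by the interaction term of the edgeR fit (adjusted p under 0.05); 51.9% of all genes tested passed the same test, so such a difference was common. Values are log2 changes in labelled minus control cells.

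Among respiratory and mitochondrial genes the interaction was 1.8 for Atp5c1, 1.56 for Atp5o, 0.74 for Atp5j, 1.22 for Ndufa13, 2.10 for Atpaf2, 1.26 for Mrpl44, 0.97 for Mrpl30, 0.85 for Mrps24 and 0.51 for Top1mt. Among fuel and transport genes it was 1.22 for Dld, 2.34 for Acadm, 2.65 for Lpin1 and 2.77 for Bsg. It was 0.95 for Mt2 and -0.89 for Prxl2a, genes that rose in both lines, and 4.24 for Fbxo31.

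Division and chromatin genes had -2.63 for Ccna2, -4.80 for Cenpf, -2.42 for Birc5 and -1.02 for Dnmt1, against 1.20 for Cdk16, 0.77 for E2f4 and 0.98 for Kat7. Replicate 1 of labelled day 0 was high for the first 4 of these; without it the interaction was -1.13 for Birc5 and -0.56 for Dnmt1, both still past the threshold, and those of Ccna2 and Cenpf moved by less than 1.5 times. RNA and protein genes had -0.55 for Upf2, -1.09 for Srsf5, -1.20 for Srsf7, 0.84 for Eif4h, 0.90 for Sars, 0.92 for Ube2m and 0.46 for Tax1bp1. The remaining values were 0.83 for Klf9, -2.43 for Trim59, -2.43 for Dact3, 1.70 for Pkp4, 1.26 for Bmper and -2.92 for Gpr137b.

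The interactions of Atp5j, Mrps24, Top1mt, Birc5, Dnmt1, Upf2 and Tax1bp1 lost their call when at least 1 library was left out. Tax1bp1 also lost it with the replicate block (adjusted p = 0.0605, edgeR) and Tax1bp1 and Top1mt with no filter on low counts (adjusted p = 0.0879 and 0.0719, edgeR).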

How the results depend on the processing

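Peaks: 168 of the 616 peaks scored 100 or more, and 1091 day 7 peaks had no day 0 partner of score 100 or more. The share at start sites was 85.6% within 500 bases, 92.4% within 5 kb and 96.4% for scores of 100 or more. The share with a core was 83.3% with 1 mismatch, 15.1% for CGCATGCG alone, 39.1% over the whole peak and 41.7% for scores of 100 or more. LSD1 overlap, in the order control day 0, control day 7, labelled day 0, labelled day 7, was 8.12%, 55.0%, 69.3% and 94.5% with LSD1 peaks of score 100 or more, and 38.1%, 84.5%, 91.1% and 100% for Nrf1 peaks of score 100 or more.

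Member genes: with peaks of score 100 or more alone, which leaves fewer genes, the calls were 77 (49 higher, 28 lower) for day 7 against day 0 in control cells, 119 (77 and 42) in labelled cells, 43 (23 and 20) for label against control at day 0, 101 (62 and 39) at day 7 and 85 (54 and 31) for the interaction. Over all genes tested, 48.3%, 69.8%, 25.8%, 63.6% and 51.9% were called, in the same order. Split into higher and lower, these were 23.7% and 24.6%, 32.6% and 37.2%, 12.8% and 13.0%, 30.2% and 33.4%, and 23.9% and 28.1%. The counts above are of a smaller set of genes, so they cannot be set against the counts for all members. Leaving out 1 library gave 62 to 295 calls at day 0 between the lines (23 to 131 higher, 39 to 164 lower). The ranges were 205 to 386, 362 to 458, 316 to 431 and 250 to 391 for the other comparisons in the same order. The calls over all genes tested moved as well. At day 0 they ran from 1062 higher and 1110 lower of 13588 to 3058 and 3507 of 13510, so the swing was not particular to the members. Replicate numbers did not pair the libraries (correlations of deviations from -0.249 to 0.114 for equal numbers). With the replicate block the calls of member genes were 245, 376, 104, 338 and 276, against 270, 390, 124, 358 and 291 without it. Over all genes tested the block gave 22.1% higher and 23.0% lower in control cells and 31.9% and 35.9% in labelled cells. Between the lines it gave 10.8% and 11.4% at day 0 and 28.7% and 32.4% at day 7. For the interaction it gave 22.7% and 26.3%.

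Of 123 results for single genes, 105 kept direction and side of the threshold under every alternative, 18 lost or gained a call under at least 1, and none reversed. Precision is lower for genes with few counts, such as Atp5g2 with 1180 and Mrps33 with 1335 over the 12 libraries.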
